A study of Mus musculus with 12 samples.

Results

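Mitosis and G2/M genes encode the proteins that carry a cell into and through mitosis. The set described here holds every probe set whose platform gene symbol is one of 40 listed genes. Of these, 39 were measured, by 92 of the 45037 probe sets that are not controls, in a series of 18193 named genes. No probe set carried the symbol of Ccnb1, which encodes cyclin B1, in the annotation used here, so this member has no value below. For each gene the brightest of its probe sets was used, and the other probe sets are set beside it further on. In total 27 members have several probe sets.

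The cells are KH2, a mouse embryonic stem (ES) cell line kept on feeder cells, and RNA was measured on Affymetrix expression arrays. There are 4 groups with 3 arrays each, lettered A, B and C in the labels: untreated cells, titled WT and with no exposure to retinoic acid (RA), and the same line after 2, 4 or 6 h in RA. RA is made from vitamin A, binds nuclear receptors and sets ES cells on the way to differentiation. The RA groups received it at 0.3 µM in a differentiation medium of DMEM with serum and NAA. Whether untreated cells were given that medium too is not stated, so RA and the change of medium cannot be told apart here. Before harvest cells were replated on gelatin for 30 min. The protocols differ on which cells were kept, since one describes the adhered cells and the other reads as the unattached ones. The labels do not say whether A, B and C are separate cultures, so p-values measure the spread between these arrays, which may be technical, and 3 arrays a group limit the precision.

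As background, entry into mitosis is driven by CDK1 bound to cyclin A or B once CDC25 phosphatases remove its inhibitory phosphates. Polo and Aurora kinases, kinesins and their partners then build the spindle. The checkpoint kinases and MAD2 hold the anaphase-promoting complex (APC/C) back until every chromosome is attached, after which securin and the cyclins are destroyed and the cell divides. ES cells divide fast with short gap phases. Much of this gene set is transcribed in G2 through promoter elements known as CHR and CCAAT boxes, bound by the MuvB complex with B-MYB or FOXM1 and by NF-Y. Because a bulk sample was measured, fewer cells in G2 and M and less RNA per cell cannot be told apart.

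Levels are log2 signals as deposited. Each difference is one group's mean log2 signal minus another's, and the value after ± is its standard error in the limma fit unless SD is stated. A gene was called changed when its Benjamini-Hochberg adjusted p over all 18193 genes was under 0.05. All 39 measured members lay over the median of their array on every array, with means over the 12 arrays between 8.32 and 13.28 where the median of all values was 6.07. The 10 ES cell markers also lay over the median on every array, and 7 of 7 measured genes of the RA check rose at each time. Cyp26a1, the RA-degrading enzyme, rose by 6.11, 6.85 and 6.46 at 2, 4 and 6 h, and Hoxb1 rose by 2.93, 5.45 and 5.69.

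Untreated array C stood apart from the other untreated arrays. On array C, 32 of the 39 members lay above the mean of the untreated group, against 4 on array A and 18 on array B. Median deviations of the members were 0.077, -0.069 and -0.0065 on C, A and B. Those of all genes were 0.032, -0.0056 and -0.024. The deviations of all genes had an SD of 0.197 on C, 0.130 on A and 0.135 on B, so array C differed over all genes too. The markers of feeder fibroblasts were lowest on array C. Over the 3 untreated arrays their order was neither that of the members nor its reverse. The mean log2 signal of these markers was 8.46 to 8.70 on the RA arrays, against 8.37 on untreated array A, 8.68 on B and 8.002 on C. Of 26 measured feeder markers, 20 lay over the median of every array and none was at 0. Their summed linear signal ran from 20462 to 22881 at 2 h, 20922 to 22984 at 4 h and 18522 to 20464 at 6 h, against 18866 to 23380 without RA. At 4 h 4 of the 26 rose (15.4%) and none fell, where 12.8% of all genes rose and 14.1% fell. At 6 h 3 rose (11.5%) and 1, Fn1, fell (3.85%), where 15% of all genes rose and 14.7% fell. The part of feeder RNA in the results below was not tested. Counts without untreated array C are given beside the main ones.

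**Figure D1:**
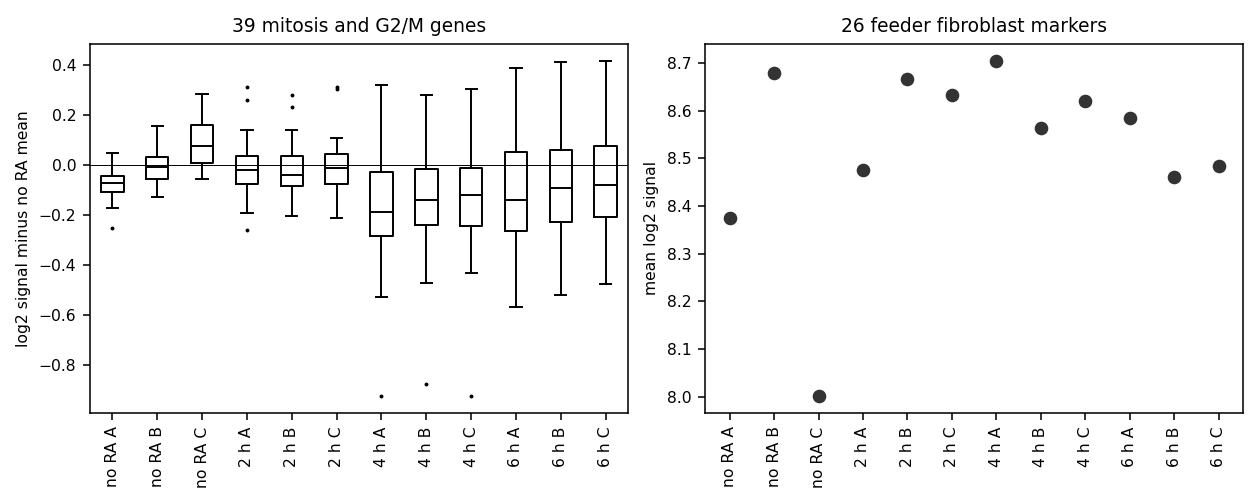
Left, box plots of the log2 signal of the 39 measured mitosis and G2/M genes on each of the 12 arrays, each gene minus its mean without RA (line, median; box, quartiles; whiskers, up to 1.5 times the box; dots, genes beyond). Right, the mean log2 signal of 26 feeder fibroblast markers on each array. Untreated array C has the highest median of the members in the untreated group and the lowest feeder mean, 8.002.

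Few of these genes moved at 2 h, and at 4 and 6 h many fell by a small amount while a few rose. At 2 h 1 of 39 members, Nek2, rose and none fell, where 1.5% of all genes rose and 1.19% fell (2.68% in all). At 4 h 17 of 39 fell and 2, Ccnf and Ttk, rose, where 14.1% of all genes fell and 12.8% rose (26.9% in all). At 6 h 14 fell and 3, Ttk, Ccnf and Cdk1, rose, where 14.7% of all genes fell and 15% rose (29.7% in all). The median log2 difference of the members was -0.02 at 2 h, -0.16 at 4 h and -0.12 at 6 h, beside 0.0043, 0.0023 and -0.01 for all genes. Without untreated array C these medians were 0.03, -0.09 and -0.04 for the members, beside 0.01, 0.01 and -0.0039 for all genes. The members are well-detected genes, and among the 12038 genes over the median of all values in at least 3 arrays 22.1% fell at 4 h and 22% at 6 h. In that fit 17 members fell at 4 h and 15 at 6 h, and 2 rose at 2 h, where 2.67% of those genes rose and 2.8% fell. It called 2 and 5 members higher at 4 and 6 h, where 20.1% and 23.6% of its genes rose.

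The changes were small. By the brightest probe set of each gene, the largest, that of Cdc25b at 4 h, was 1.87-fold, and no other member fell by as much as 0.51 in either the 4 h or the 6 h comparison. Among the other probe sets, 1 of Cenpe fell by 0.91 at 4 h and 1 of Nek2 rose by 0.91 at 6 h. Without untreated array C, 14 members fell and 2 rose at 4 h, where 14.4% of all genes fell and 14.7% rose, and 13 fell and 5 rose at 6 h, where 15.9% fell and 17.9% rose, and 16 of the 19 and 16 of the 17 calls were kept. Without RA 4 h array A the 4 h count was 12, all of them falls, against 19 with it. Counts of all genes dropped too, to 1757 higher and 2056 lower, from 2332 and 2561. Of the calls, 11 of 19 at 4 h and 10 of 17 at 6 h were kept whichever single array was left out. The single call at 2 h was lost without untreated array A or any 1 of the RA 2 h arrays.

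The F test over the 4 groups passed for 20 of 39 members, against 36.3% of all genes. The highest group mean lay without RA for 17 members, at 2 h for 10 and at 6 h for 12. The lowest lay at 4 h for 21, at 6 h for 10, without RA for 5 and at 2 h for 3. By arrays that did not overlap, 6 members were lower and 4 higher at 2 h, where 11.7% and 10.5% of all genes were. At 4 h 20 were lower and 3 higher, where 18.7% and 18.3% of all genes were, and at 6 h 18 were lower and 7 higher, where 19.7% and 19.2% were.

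**Figure D2:**
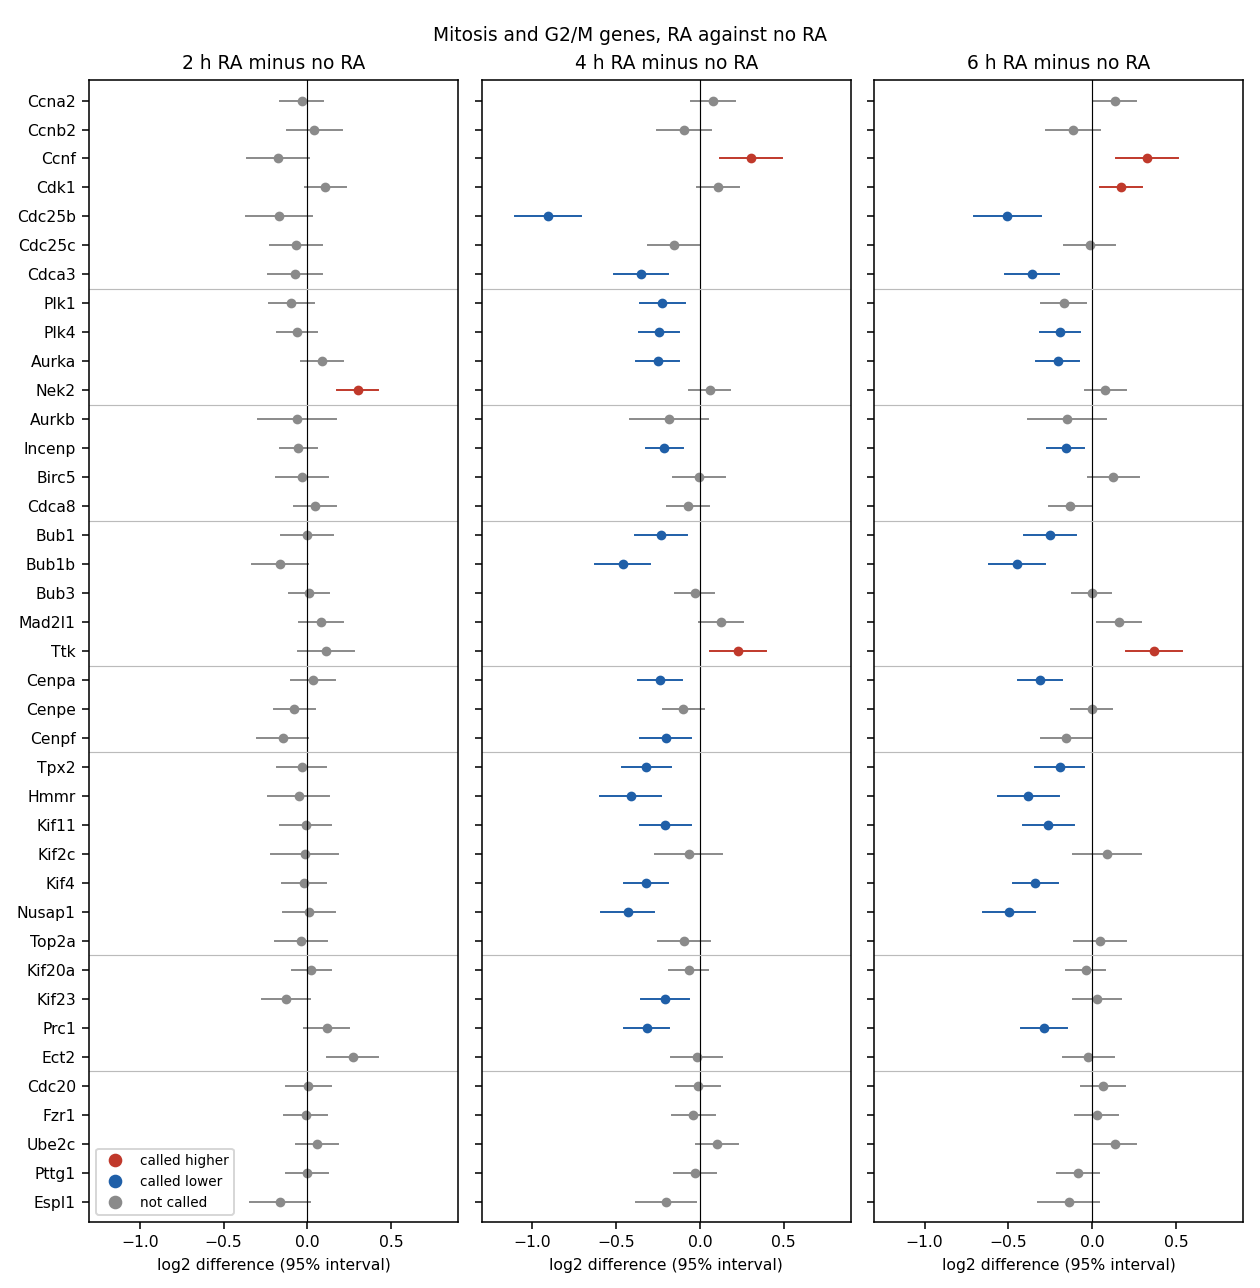
The log2 difference of each of the 39 measured members from no RA at 2, 4 and 6 h, with the 95% interval of the limma fit, grouped by role with grey lines between the groups. Red marks a gene called higher, blue one called lower and grey one not called. One gene is coloured at 2 h, 19 at 4 h and 17 at 6 h, and Cdc25b at 4 h lies farthest from 0.

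Promoter windows are shown because many members that moved, and many that were not called, share the same 2 short elements, though not all hold both. RefSeq windows of 300 bases (GRCm38.p6, 250 bases before to 50 after the gene's start) were matched by symbol for 34 of the 40 members. There was no match for Ccna2, Cdc25c, Aurkb, Incenp, Tpx2 and Kif20a. For 3 members, Prc1, Bub3 and Ect2, there were 2 windows. Only the first listed window of a gene was used, here and for all genes. The windows below are written 5′ to 3′ on the gene's strand, with matches to the CHR (TTTGAA or TTCGAA) and to CCAAT in capitals. Either was searched on both strands, so TTCAAA and ATTGG are the same elements read on the other strand. The first 4 genes fell at 4 h, the next 2 rose, and Cdc20 was not called. They lie at chr2:131186698-131186997 on the + strand (Cdc25b), chr7:80294201-80294500 on the + strand (Prc1), chr11:40733388-40733687 on the - strand (Hmmr), chr2:119618048-119618347 on the + strand (Nusap1), chr17:24251360-24251659 on the - strand (Ccnf), chr9:83834439-83834738 on the + strand (Ttk) and chr4:118437294-118437593 on the - strand (Cdc20).
Cdc25b: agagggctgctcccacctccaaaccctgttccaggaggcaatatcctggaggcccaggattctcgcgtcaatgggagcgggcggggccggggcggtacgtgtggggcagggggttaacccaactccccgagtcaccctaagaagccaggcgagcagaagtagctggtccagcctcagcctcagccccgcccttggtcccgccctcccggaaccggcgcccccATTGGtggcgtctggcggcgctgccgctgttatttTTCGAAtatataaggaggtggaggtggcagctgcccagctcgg
Prc1: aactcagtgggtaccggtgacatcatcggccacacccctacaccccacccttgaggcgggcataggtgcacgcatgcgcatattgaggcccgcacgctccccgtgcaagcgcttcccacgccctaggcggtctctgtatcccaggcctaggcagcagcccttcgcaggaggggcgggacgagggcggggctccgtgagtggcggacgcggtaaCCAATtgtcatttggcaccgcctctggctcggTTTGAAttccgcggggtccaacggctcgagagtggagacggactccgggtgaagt
Hmmr: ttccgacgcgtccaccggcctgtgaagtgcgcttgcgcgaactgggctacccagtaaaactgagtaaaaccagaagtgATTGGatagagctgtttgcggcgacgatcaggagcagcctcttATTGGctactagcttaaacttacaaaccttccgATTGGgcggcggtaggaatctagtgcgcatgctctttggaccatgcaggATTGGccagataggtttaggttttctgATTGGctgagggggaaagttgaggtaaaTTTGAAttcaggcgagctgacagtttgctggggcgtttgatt
Nusap1: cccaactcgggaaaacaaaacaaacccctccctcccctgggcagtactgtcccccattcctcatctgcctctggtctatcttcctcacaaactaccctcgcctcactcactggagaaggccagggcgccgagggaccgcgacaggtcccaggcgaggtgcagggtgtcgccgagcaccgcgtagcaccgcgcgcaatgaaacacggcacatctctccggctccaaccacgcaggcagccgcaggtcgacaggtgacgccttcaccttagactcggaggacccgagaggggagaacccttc
Ccnf: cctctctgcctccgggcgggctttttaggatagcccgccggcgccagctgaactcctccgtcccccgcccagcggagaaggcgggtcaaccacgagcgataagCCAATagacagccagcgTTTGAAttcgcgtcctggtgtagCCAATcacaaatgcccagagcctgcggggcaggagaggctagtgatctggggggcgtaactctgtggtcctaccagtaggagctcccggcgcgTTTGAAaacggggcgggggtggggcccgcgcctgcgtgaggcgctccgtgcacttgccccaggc
Ttk: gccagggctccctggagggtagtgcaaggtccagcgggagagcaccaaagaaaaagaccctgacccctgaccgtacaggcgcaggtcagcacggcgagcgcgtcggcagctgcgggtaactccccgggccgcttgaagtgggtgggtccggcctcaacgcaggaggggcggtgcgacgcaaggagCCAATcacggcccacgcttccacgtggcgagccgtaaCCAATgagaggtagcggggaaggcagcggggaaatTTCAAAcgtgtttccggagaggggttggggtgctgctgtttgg
Cdc20: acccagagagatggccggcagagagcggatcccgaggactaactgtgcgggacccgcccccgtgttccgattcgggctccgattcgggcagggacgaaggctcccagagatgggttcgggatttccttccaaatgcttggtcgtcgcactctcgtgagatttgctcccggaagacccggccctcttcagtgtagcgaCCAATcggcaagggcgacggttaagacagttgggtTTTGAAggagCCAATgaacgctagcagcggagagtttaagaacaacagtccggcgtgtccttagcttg

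In these windows the CHR of Cdc25b starts 7 bases after the gene's start and its CCAAT 28 bases before it. Prc1 has its CHR 5 bases before the start and CCAAT 37 bases before it. Hmmr holds 1 CHR and 5 CCAAT boxes, with all 5 boxes on the other strand. Nusap1, which fell at 4 and 6 h, holds neither, as do Plk4, Birc5, Mad2l1 and Pttg1. Ccnf and Ttk, which rose, hold both elements, with 2 and 1 CHR matches and 2 CCAAT boxes each, and so does Cdc20, with 1 CHR and 2 CCAAT boxes. Of the 34 windows, 25 (73.5%) held a CHR, against 19.4% of the windows of 27025 genes, and 28 (82.4%) held CCAAT, against 37.9%. Both were in 24 (70.6%), against 7.7% of all genes. On the gene's own strand alone 20 members held a CHR and 18 held CCAAT, 58.8% and 52.9%, against 11.5% and 21.7% of all genes. Nearest the start, the CHR of the members lay at a median of 4 bases after it and CCAAT at a median of 30 bases before it. In 1 window, that of Cdca8, matches of the 2 elements overlap. Both elements were in 13 of 15 windows of members that fell at 4 h, in 2 of 2 of those that rose and in 9 of 16 of those not called. A match is a description of these letters only, and binding was not measured.

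Among the cyclins, CDK1 and the CDC25 phosphatases, 2 of 7 measured genes fell and 1 rose at 4 h, and 2 fell and 2 rose at 6 h. Of all genes 14.1% fell and 12.8% rose at 4 h, and 14.7% fell and 15% rose at 6 h. Each role holds few genes, so 1 call more or less moves its share by much. Cdc25b encodes a phosphatase that activates CDK1 with cyclin at the start of mitosis. Its log2 signal was 8.61, 8.60 and 8.94 without RA, 8.46, 8.51 and 8.67 at 2 h, 7.79, 7.84 and 7.79 at 4 h, and 8.15, 8.24 and 8.24 at 6 h. All RA 4 h arrays lay below all others, and the RA 6 h arrays lay between those at 4 h and those of the earlier groups. Cdc25b fell by 0.91 ± 0.0906 at 4 h (limma adjusted p = 3.33e-05), a change of -46.6% in linear signal, and by 0.51 ± 0.0906 at 6 h (adjusted p = 0.00125). Between 4 and 6 h its difference was 0.40 ± 0.0906, with no overlap of the arrays, and was not called (adjusted p = 0.078). Only 1 probe set carries the symbol of Cdc25b. Cdc25c, a related phosphatase, was not called, with differences of -0.07, -0.16 and -0.02 at 2, 4 and 6 h.

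Ccnf encodes cyclin F, an F-box protein that marks substrates for destruction and does not activate CDK1. Its log2 signal was 10.37, 10.43 and 10.73 without RA, 10.37, 10.33 and 10.30 at 2 h, 10.83, 10.79 and 10.82 at 4 h, and 10.90, 10.86 and 10.75 at 6 h. Every array at 4 and 6 h lay above every untreated and 2 h array, and at 6 h array C did so by little. Ccnf rose by 0.30 ± 0.0847 at 4 h (limma adjusted p = 0.0192) and by 0.32 at 6 h (adjusted p = 0.0122). Without untreated array A or B, or RA 4 h array A or C, the 4 h call was lost, and over all fits without 1 array its adjusted p ran from 4.11e-04 to 0.0709. At 6 h the call was lost without RA 6 h array A (adjusted p = 0.0503).

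Cdk1, the mitotic kinase itself, read 12.04, 12.09 and 12.13 without RA, 12.19, 12.21 and 12.18 at 2 h, 12.13, 12.22 and 12.24 at 4 h, and 12.19, 12.27 and 12.31 at 6 h. The RA 2 h and 6 h arrays lay above all untreated arrays, by little. It rose by 0.17 ± 0.0567 at 6 h (limma adjusted p = 0.0402), a call lost without 8 of the 12 arrays taken singly, with adjusted p of 0.024 to 0.124. Those arrays are untreated A and B, all 3 at RA 2 h, RA 4 h B, and RA 6 h B and C. Cdca3, a trigger of mitotic entry, read 11.93, 11.92 and 12.18 without RA and 11.92, 11.93 and 11.96 at 2 h, then 11.62, 11.61 and 11.74 at 4 h and 11.60, 11.68 and 11.67 at 6 h. Its arrays at 4 and 6 h all lay below the rest. Cdca3 fell by 0.35 at 4 h (adjusted p = 0.00397) and by 0.36 at 6 h (adjusted p = 0.00316). In the fit over all probe sets 1 of its 3 was called lower at each of these times. Their differences ran from -0.35 to -0.02 at 4 h and from -0.36 to 0.008 at 6 h. With its probe sets averaged Cdca3 was not called at either time. Ccna2 and Ccnb2, cyclins A2 and B2 that bind CDK1, were not called against no RA, at 0.08 and -0.09 at 4 h and 0.13 and -0.12 at 6 h. The untreated arrays of Ccnb2 spanned 12.10 to 12.41.

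**Figure D3:**
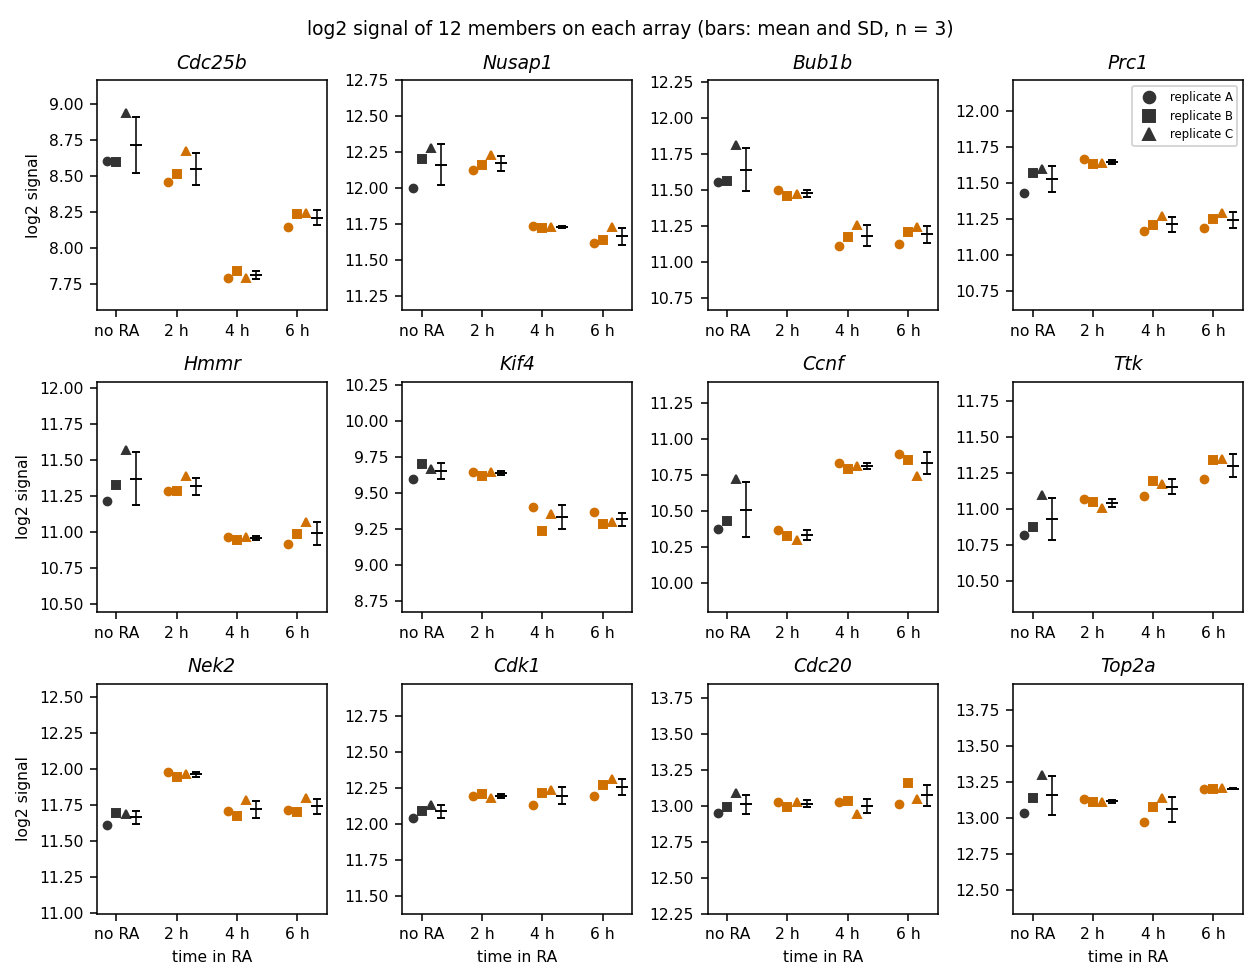
log2 signal of 12 members on each of the 12 arrays without RA and after 2, 4 and 6 h, with marks by replicate letter and bars for the mean and SD of 3 arrays. Each panel spans the same number of log2 units around its own gene. Cdc25b is lowest at 4 h, Nusap1, Bub1b, Prc1, Hmmr and Kif4 are lower at 4 and 6 h than before, Ccnf and Ttk are higher on average at 4 and 6 h, with 1 Ttk array at 4 h just below untreated array C, Nek2 is highest at 2 h, and the groups of Cdc20 overlap.

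Of the 4 Polo, Aurora A and NEK kinases, 3 fell at 4 h and 2 at 6 h. Of all genes 14.1% and 14.7% fell at these times. Aurka, Aurora A, the kinase of centrosomes and spindle poles, read 11.42, 11.53 and 11.39 without RA, 11.54, 11.54 and 11.53 at 2 h, 11.14, 11.24 and 11.22 at 4 h, and 11.20, 11.25 and 11.28 at 6 h. The later arrays all lay below the earlier ones. It fell by 0.25 at 4 h and by 0.21 at 6 h (limma adjusted p = 0.00696 and 0.0179), and the 6 h call was lost without untreated array B or RA 6 h array A (adjusted p up to 0.0706). Plk4, the kinase of centriole duplication, fell by 0.24 at 4 h and by 0.19 at 6 h (adjusted p = 0.00579 and 0.0186), and its arrays at these times all lay below the untreated ones. Its 6 h call was lost without untreated array A or RA 6 h array A or B (adjusted p up to 0.0653). In the fit over all probe sets 1 of the 3 of Plk4 was called lower at each of these times. Their differences ran from -0.62 to -0.16 at 4 h and from -0.54 to -0.17 at 6 h. Both calls were lost when probe sets with a suffix for shared probes were left out. Plk1, the Polo kinase of mitotic entry and spindle assembly, fell by 0.23 at 4 h (limma adjusted p = 0.0177, or 0.0713 without RA 4 h array A) and stood at -0.17 at 6 h without a call (adjusted p = 0.0553).

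Nek2, a kinase that separates centrosomes, was the member called at 2 h. It read 11.61, 11.69 and 11.69 without RA, 11.98, 11.95 and 11.97 at 2 h, 11.71, 11.67 and 11.79 at 4 h, and 11.72, 11.71 and 11.80 at 6 h. The 3 arrays at 2 h lay above all 9 others. Nek2 rose by 0.30 ± 0.0563 at 2 h (limma adjusted p = 0.0153), and without any 1 of the 4 arrays named above for that count its call was lost (adjusted p up to 0.0742). It stood at 0.06 and 0.08 at 4 and 6 h, uncalled.

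The chromosomal passenger complex corrects wrong attachments and guides cytokinesis. Of its 4 members 1 fell at both 4 and 6 h, where 14.1% and 14.7% of all genes fell. That was Incenp, the scaffold of the complex, at 12.14, 12.12 and 12.22 at 4 h and 12.22, 12.22 and 12.20 at 6 h, against 12.37 on each untreated array. It fell by 0.21 at 4 h (limma adjusted p = 0.00834) and by 0.16 at 6 h (adjusted p = 0.0321). The 6 h call was lost without untreated array A or B, RA 2 h array A or any 1 RA 6 h array (adjusted p up to 0.0775). In the fit over all probe sets, 1 of the 5 probe sets of Incenp was called at 4 h and 0 at 6 h. Their differences ran from -0.21 to 0.05 at 4 h and from -0.27 to 0.06 at 6 h. Aurkb, the kinase of the complex, was not called, at -0.18 and -0.15, and its untreated arrays spanned 9.81 to 10.35. Birc5, or survivin, stood at -0.005 and 0.13, and Cdca8, or borealin, at -0.07 and -0.13, at 4 and 6 h, neither called.

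Among the 5 spindle checkpoint genes, 2 fell and 1 rose at both 4 and 6 h. Of all genes 14.1% and 14.7% fell and 12.8% and 15% rose at these times. Bub1b, which encodes BUBR1 of the mitotic checkpoint complex, read 11.55, 11.56 and 11.81 without RA, 11.50, 11.46 and 11.47 at 2 h, 11.11, 11.17 and 11.26 at 4 h, and 11.13, 11.21 and 11.25 at 6 h. Each RA array lay below each untreated one, those at 2 h by the least. Bub1b fell by 0.46 ± 0.0758 at 4 h and by 0.45 at 6 h (limma adjusted p = 8.84e-04 and 8.6e-04). Bub1, a kinase of the same pathway, read 12.15, 12.16 and 12.10 at 4 h, against 12.23, 12.37 and 12.50 without RA. It fell by 0.23 at 4 h (adjusted p = 0.0313), a call lost without untreated array B or C or any 1 RA 4 h array, with adjusted p up to 0.0921. It fell by 0.25 at 6 h (adjusted p = 0.0184, or 0.0726 without RA 6 h array C).

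Ttk, the MPS1 kinase that starts checkpoint signalling at kinetochores, went the other way. It read 10.82, 10.87 and 11.10 without RA, 11.07, 11.05 and 11.01 at 2 h, 11.09, 11.19 and 11.18 at 4 h, and 11.21, 11.34 and 11.35 at 6 h. All RA 6 h arrays lay above all untreated ones, while at 4 h array A lay just below untreated array C. Ttk rose by 0.37 ± 0.0764 at 6 h (limma adjusted p = 0.0032). The rise of 0.22 at 4 h (adjusted p = 0.0474) was lost in 10 of 12 fits without 1 array, all but those without untreated array C or RA 6 h array A (adjusted p up to 0.156). Mad2l1, the checkpoint protein MAD2, was not called, at 0.13 and 0.16 at 4 and 6 h (adjusted p = 0.144 and 0.0682), and its later arrays lay above the untreated ones. Bub3, the partner of BUB1 and BUBR1, stood at -0.03 and -0.004 by its brightest probe set.

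Of the 3 centromere and kinetochore genes, 2 fell at 4 h and 1 at 6 h, where 14.1% and 14.7% of all genes fell. Cenpa, the centromeric histone H3 variant, read 11.93, 12.02 and 12.10 without RA, 12.03, 12.05 and 12.07 at 2 h, 11.74, 11.74 and 11.86 at 4 h, and 11.72, 11.70 and 11.70 at 6 h. The arrays at 4 and 6 h lay below all the earlier ones. It fell by 0.24 ± 0.0602 at 4 h (limma adjusted p = 0.012, or 0.0509 without RA 4 h array B) and by 0.31 at 6 h (adjusted p = 0.00214). Another probe set of Cenpa gave the opposite call, as described with the probe sets. Cenpf, a large kinetochore protein, fell by 0.20 at 4 h (adjusted p = 0.0472), a call kept only without untreated array A or B among the fits without 1 array. In the other 10 of those fits the adjusted p was up to 0.145. Of the 3 probe sets of Cenpf, 1 was called lower at 4 h and 1 at 6 h in the fit over all probe sets. Their differences ran from -0.56 to -0.20 at 4 h and from -0.47 to -0.16 at 6 h. Cenpe, the kinetochore kinesin CENP-E, was not called by its brightest probe set, at -0.10 and -0.003, while another fell, as described with the probe sets.

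Of the 7 spindle assembly and motor genes, 5 fell at both 4 and 6 h, where 14.1% and 14.7% of all genes fell. Nusap1, a microtubule-bundling protein of the spindle, read 12.004, 12.21 and 12.28 without RA, 12.13, 12.16 and 12.23 at 2 h, 11.74, 11.73 and 11.73 at 4 h, and 11.62, 11.64 and 11.73 at 6 h. The 3 arrays at 4 h were close to each other and below every earlier array. Nusap1 fell by 0.43 ± 0.0719 at 4 h and by 0.50 at 6 h (limma adjusted p = 9.68e-04 and 3.15e-04). Hmmr, a spindle protein that also binds hyaluronan, read 11.22, 11.33 and 11.57 without RA, 11.29, 11.28 and 11.39 at 2 h, 10.97, 10.95 and 10.97 at 4 h, and 10.92, 10.99 and 11.07 at 6 h. Again no later array overlapped with an earlier one. Hmmr fell by 0.41 at 4 h and by 0.38 at 6 h (adjusted p = 0.00338 and 0.00467).

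Kif4, a chromokinesin that binds condensed chromosomes and the central spindle, read 9.60, 9.71 and 9.67 without RA, 9.65, 9.62 and 9.65 at 2 h, 9.41, 9.24 and 9.36 at 4 h, and 9.37, 9.29 and 9.30 at 6 h. Those at 4 and 6 h were lower with no overlap. Kif4 fell by 0.32 ± 0.0602 at 4 h and by 0.34 at 6 h (limma adjusted p = 0.00197 and 0.00119). Tpx2, the activator of Aurora A on spindle microtubules, fell by 0.32 at 4 h (adjusted p = 0.00397) and by 0.19 at 6 h (adjusted p = 0.0446), the second being lost in 10 of 12 fits without 1 array, all but those without RA 2 h array C or RA 6 h array C (adjusted p up to 0.160). Kif11, the motor Eg5 that pushes spindle poles apart, fell by 0.21 at 4 h (adjusted p = 0.0488) and by 0.26 at 6 h (adjusted p = 0.0139). Its 4 h call was kept only without untreated array A or C, and the adjusted p reached 0.172 without others. Kif2c, a microtubule depolymerase, and Top2a, the topoisomerase that untangles chromatids, were not called, at -0.07 and -0.09 at 4 h and 0.09 and 0.05 at 6 h.

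Of the 4 central spindle and cytokinesis genes, 2 fell at 4 h and 1 at 6 h. Of all genes 14.1% and 14.7% fell at these times. Prc1, which bundles the microtubules of the central spindle, read 11.43, 11.57 and 11.60 without RA, 11.67, 11.63 and 11.64 at 2 h, 11.16, 11.21 and 11.27 at 4 h, and 11.19, 11.25 and 11.29 at 6 h. The 2 h arrays were the highest and the later arrays the lowest, with no overlap between these and the untreated ones. Prc1 fell by 0.32 ± 0.0616 at 4 h and by 0.29 at 6 h (limma adjusted p = 0.00256 and 0.00393). Kif23, a kinesin of the centralspindlin complex, read 10.44, 10.46 and 10.38 at 4 h and 10.69, 10.70 and 10.59 at 6 h, against 10.53, 10.71 and 10.66 without RA. It fell by 0.21 at 4 h (adjusted p = 0.0344), which was lost without untreated array B or C or any 1 RA 4 h array (adjusted p up to 0.115), and stood at 0.03 at 6 h. Ect2, which activates RhoA for the cleavage furrow, read 11.27, 11.24 and 11.32 at 2 h, against 10.97, 11.06 and 11.00 without RA. Its arrays did not overlap, and its difference of 0.27 was not called (adjusted p = 0.069). At 4 and 6 h Ect2 stood at -0.02 and -0.03. Kif20a, a kinesin of cytokinesis, stood at -0.07 and -0.04 and was not called.

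None of the 5 genes of APC/C activity and its main targets was called at any time. Of all genes 26.9% were called at 4 h and 29.7% at 6 h. Cdc20, the activator that starts anaphase, read 12.95, 12.99 and 13.09 without RA, 13.03, 12.99 and 13.03 at 2 h, 13.02, 13.03 and 12.94 at 4 h, and 13.01, 13.16 and 13.05 at 6 h, and all groups overlapped. Its difference at 4 h was -0.01, with a 95% interval of -0.14 to 0.12. Fzr1, the activator of late mitosis and G1, stood at -0.04 and 0.03 at 4 and 6 h. Ube2c, the ubiquitin-conjugating enzyme of the APC/C, stood at 0.10 and 0.14, with arrays above the untreated ones at both times (adjusted p = 0.229 and 0.0925). Pttg1, securin, stood at -0.03 and -0.08, and Espl1, separase, at -0.20 and -0.14 (adjusted p = 0.0973 and 0.239). A missed call does not show that these genes were steady.

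Between RA times, 15 of 39 members fell and 1, Ccnf, rose at 4 h against 2 h, where 11.9% of all genes fell and 12.7% rose. The comparison shares its 4 h arrays with the one against no RA and its 2 h arrays with the 2 h one. Prc1 stood at -0.43 against 2 h and -0.32 against no RA, and Nusap1 at -0.44 and -0.43. Ect2, Nek2 and Aurka, whose means were higher at 2 h than without RA, fell by 0.29, 0.24 and 0.34 at 4 h against 2 h (limma adjusted p = 0.0107, 0.00895 and 0.00158). Without RA 4 h array A the count of calls against 2 h was 11, against 16 with it. Of all genes 1735 were then higher and 1665 lower, against 2316 and 2160 with it. At 6 h against 2 h 14 fell and 3 rose, where 15.1% of all genes fell and 17.1% rose. Ccna2 rose by 0.17 and Cdca8 fell by 0.18 in that comparison (adjusted p = 0.0493 and 0.0355). Without RA 2 h array C the count of 17 was 11. Of all genes 2465 were then higher and 2198 lower, against 3106 and 2739 with it. With all probe sets of a gene averaged, 6 members fell and 2 rose at 6 h against 2 h. Their median difference was then 0.0057, beside -0.03 for all genes. With only probe sets that carry no suffix for shared probes, 5 of 32 members fell and 6 rose.

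No member was called at 6 h against 4 h, where 0.313% of all genes rose and 0.275% fell. At an unadjusted p under 0.05 there were 2, Cdc25b at 0.40 and Kif23 at 0.23 (limma adjusted p = 0.078 and 0.139). Without untreated array C 1 member, Cdc25b, was called, at 0.40 (adjusted p = 0.0079), where 2.44% of all genes rose. The arrays of 10 members were higher at 6 h with no overlap and those of 2 were lower, where 13.4% and 10.4% of all genes were. The median difference of the 39 was 0.04, beside -0.0046 for all genes.

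Probe sets of one gene disagreed in many members. In the fit over all probe sets 23 of the 92 fell and 5 rose at 4 h, where 9.36% of all probe sets fell and 9.34% rose, and 16 fell and 6 rose at 6 h, where 9.83% fell and 10.8% rose. At 2 h 2 rose and none fell, both of Nek2, where 0.904% rose and 0.906% fell (1.81% in all). Of the 27 members with several probe sets, 11 gave the same answer at 4 h by having none called or all called the same way, 11 were called in part with the same sign, 4 had an uncalled probe set of the opposite sign beside a called one, and 1, Cenpa, had opposite calls. At 6 h these numbers were 12, 7, 7 and 1. Between RA times, 18 probe sets fell and 6 rose at 4 h against 2 h, where 7.09% and 9.24% of all probe sets did, and 17 fell and 9 rose at 6 h against 2 h, where 9.85% and 13% did. Opposite calls were found there for Cenpa and Nek2 in both comparisons, and for Aurka and Hmmr at 6 h against 2 h. An uncalled probe set of the opposite sign stood beside a called one in 7 members at 4 h against 2 h and in 4 at 6 h against 2 h. Top2a was among them both times, with 1 of 3 probe sets called higher. Its differences ran from -0.07 to 0.36 at 4 h against 2 h and from -0.33 to 0.55 at 6 h against 2 h.

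Cenpa is the clearest disagreement against no RA. Its second probe set stood at 0.59 ± 0.174 at 4 h and 0.62 at 6 h (limma adjusted p = 0.0321 and 0.0239), where the brightest fell by 0.24 and 0.31. Another, dim probe set was not called. For Nek2, a probe set with a mean log2 signal of 6.25, near the median of all values, rose by 0.69 at 4 h and 0.91 at 6 h (adjusted p = 0.004 and 5.62e-04). It stood at -0.01 at 2 h, where the brightest Nek2 probe set and 1 other rose by 0.30 and 0.31. The second probe set of Cenpe, with a mean log2 signal of 7.61 against 10.47 for the brightest, fell by 0.91 at 4 h (adjusted p = 0.035) and stood at -0.59 at 6 h without a call. A second probe set of Bub3 rose by 0.38 at 4 h and 0.36 at 6 h (adjusted p = 0.00361 and 0.00414), where the brightest stood near 0. Tpx2 and Bub1 had other probe sets above 0 at 4 h, at 0.08 and 0.17, that were not called, and a dim probe set of Kif23 fell by 0.32 and 0.37.

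In Hmmr 4 of 5 probe sets fell at 4 h, by 0.37 to 0.42, and the fifth stood at 0.11. At 6 h 2 of the 5 fell and the fifth stood at 0.24. In Bub1b 2 of 3 fell at 4 h, by 0.46 and 0.50. At both 4 and 6 h 1 of 2 probe sets of Aurka and 1 of 3 of Kif11 fell, and 1 of 2 of Ccnf rose. Both probe sets of Nusap1 fell at 4 h, by 0.43 and 0.40, and both of Prc1, by 0.32 and 0.24, while at 6 h 1 of 2 fell in each. The second probe set of Ttk rose by 0.44 at 4 h and 0.58 at 6 h, beside 0.22 and 0.37 for the brightest. Which probe set stands for a gene therefore sets part of the counts. With the brightest probe set that carries no suffix for probes shared between transcripts or genes, 32 members could be measured, and 9 fell and 3 rose at 4 h, where 13% of all 16591 genes so measured fell and 12.4% rose. At 6 h 5 of the 32 fell and 4 rose, where 13.4% of those genes fell and 14.4% rose, so the share of falls at 6 h was near that of all genes. The median difference of the 32 was -0.08 at 4 h and 0.0057 at 6 h, beside 0.0048 and -0.01 for all genes. With all probe sets of a gene averaged 11 of 39 members were called at 6 h, against 17. These were 8 falls and 3 rises, where 2395 of all genes fell and 2546 rose. By the brightest probe set 14 members fell and 3 rose, where 2675 of all genes fell and 2733 rose. So fewer members fell at 6 h after averaging, while the counts of all genes changed less. The median difference of the members was then -0.07, beside -0.01 for all genes.

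**Figure D4:**
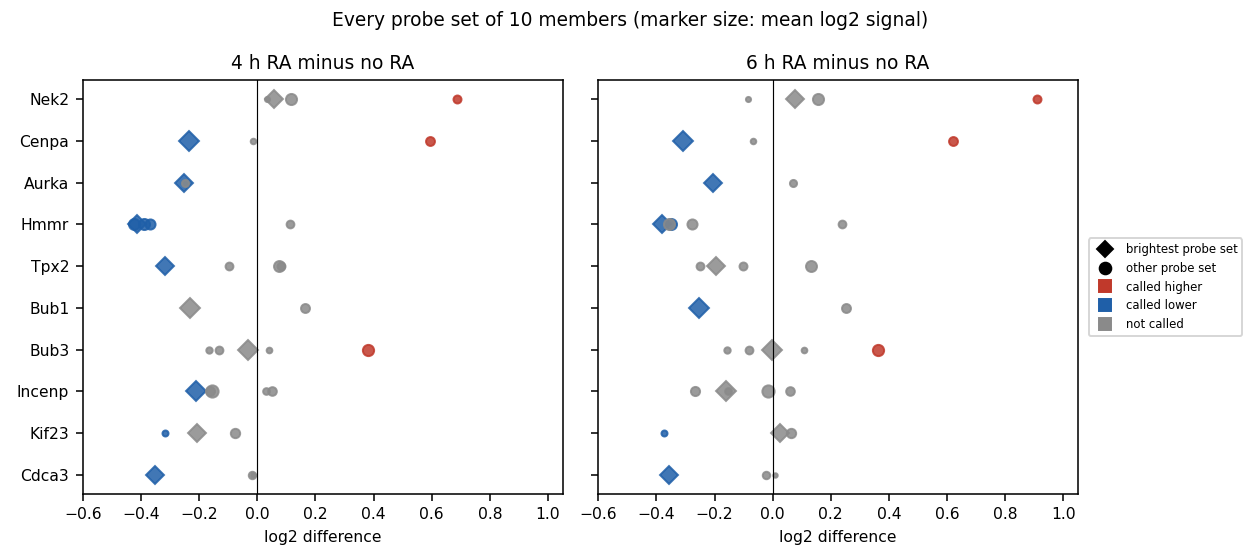
The log2 difference from no RA at 4 and 6 h for every probe set of 10 members whose probe sets differ, with diamonds for the brightest probe set of each gene, circles for the others, and larger marks for brighter probe sets. Colours are the calls of the fit over all probe sets, in which the brightest probe set of Bub1 at 4 h, of Tpx2 and Incenp at 6 h and of Kif23 at 4 h is not called. Cenpa has a blue diamond and a red circle at both times.

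Counts for other genes of the same machinery stand beside those of all genes, of which 12.8% rose and 14.1% fell at 4 h and 15% rose and 14.7% fell at 6 h. Among the 14 subunits of the APC/C, 5 rose (35.7%) and 2 fell (14.3%) at 4 h and 7 rose (50%) and 2 fell at 6 h. Cdc27, a core subunit, rose by 0.40 and 0.50, Anapc16 by 0.51 and 0.53 and Anapc10 by 0.32 and 0.36. Untreated array C adds to the rise of Anapc16, which read 9.72 there, against 10.21 on untreated A and 10.28 on B. Anapc2, the cullin of the complex, fell by 0.41 at 4 h. Among 15 regulators of CDK1, 1 rose at 2 h, 2 rose (13.3%) and 6 fell (40%) at 4 h, and 3 rose (20%) and 6 fell at 6 h. Gadd45a, a stress-induced inhibitor of G2 progression, rose by 0.44, 0.66 and 0.49 at 2, 4 and 6 h, while the related Gadd45b fell by 0.50 at 4 h and 0.52 at 6 h. Fbxo5, the APC/C inhibitor EMI1, fell by 0.38 at 4 h, and Cdkn1a, the CDK inhibitor p21, fell by 0.57 at 6 h. All of these passed the limma test, with adjusted p from 5.72e-04 to 0.0444.

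Of 31 other kinetochore genes, 6 rose (19.4%) and 4 fell (12.9%) at 4 h and 8 rose (25.8%) and 1 fell (3.23%) at 6 h. Cenpm, a subunit of the inner kinetochore, rose by 0.61 and 0.66, while Ska3, of the outer kinetochore, fell by 0.61 at 4 h. Of 26 other spindle and kinesin genes, 2 fell at 2 h, 8 fell (30.8%) and 3 rose (11.5%) at 4 h, and 4 fell (15.4%) and 2 rose (7.69%) at 6 h. Cdca2, which brings the phosphatase PP1 to mitotic chromatin, fell by 0.45 and the kinesin Kif18a by 0.41 at 4 h, while Gtse1 rose by 0.60. Racgap1, the partner of KIF23 in centralspindlin, fell by 0.36 at 6 h. Of 18 condensin and cohesin genes, 4 fell (22.2%) and none rose at both 4 and 6 h, among them Ncapd2 of condensin by 0.29 and 0.39 and Stag2 of cohesin by 0.47 and 0.23.

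Of 20 genes of the MuvB, B-MYB, FOXM1 and DREAM list, which act on the promoter elements above, 4 rose and 4 fell at 4 h (20% each) and 3 rose (15%) and 5 fell (25%) at 6 h, shares not far from those of all genes. Nfyb and Nfya, subunits of the CCAAT-binding factor NF-Y, rose by 0.77 and 0.41 at 4 h. Rbl2, the pocket protein p130, rose by 0.53 at 4 h, and Mybl2, which encodes B-MYB, fell by 0.36 at 6 h. For comparison, of 30 DNA replication genes 7 fell (23.3%) and 3 rose (10%) at 4 h and 12 fell (40%) and 1 rose (3.33%) at 6 h. E2f1, a driver of S phase genes, fell by 0.44 and 0.48, and Orc1, of the origin recognition complex, by 0.31 and 0.39. Of 10 ES cell markers 6 fell at 4 h and none rose, where Klf4 fell by 1.16 and Fgf4 fell by 1.31, more than any mitosis and G2/M gene.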

How the data were processed

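RNA of KH2 cells was measured on 12 Affymetrix arrays, 4 groups of 3. The deposited values are log2 signals made by the authors for 45101 probe sets. Their processing used limma 3.4.3, as named in the submitters' processing notes. The normalization method is not given in the sources used here, and array medians lay between 6.05 and 6.10. No further normalization was applied.

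The platform annotation gave 1 gene to 34958 probe sets, several to 932 and none to 9211. The 64 control probe sets and those of several genes were left out of the gene fit, and the brightest probe set stood for each of 18193 genes. Gene identifiers matched 34754 probe sets to RefSeq (GRCm38.p6), and 0 symbols needed updating. Group means were fitted to all 12 arrays with limma 3.58.1 in R 4.3.3 (lmFit, eBayes, 8 residual and 3.78 prior degrees of freedom), with Benjamini-Hochberg adjustment over all genes and a threshold of 0.05. A second fit took all 45037 probe sets that are not controls. The scripts were tested on simulated data. Figures used matplotlib 3.10.9.

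The members, the other lists, their roles and the tests were chosen with earlier results of these data known. All members are named. Of each other list, named genes come from the 4 called genes with the largest difference in each comparison against no RA, or the 2 largest where none was called. Alternatives were quantile normalization, median centring, other choices of probe set, a filter on dim genes, trended and robust variance, array weights, fits of the 6 arrays compared, a replicate block, other thresholds and leaving out each array.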

Additional observations from a re-analysis of the deposited data

Results flagged for a closer look

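The RA times were compared with each other in the same limma fit, and the members that differed at an adjusted p under 0.05 are listed here with their log2 differences. There were 16 at 4 h against 2 h, 17 at 6 h against 2 h and 0 at 6 h against 4 h, where 2 had an unadjusted p under 0.05. Groups of 3 arrays are too small for a test of single outlying arrays.

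Ccnf was higher at 4 h than at 2 h, at 0.48. The lower members at 4 h were, from the largest difference, Cdc25b at -0.74, Nusap1 at -0.44, Prc1 at -0.43, Hmmr at -0.36, Aurka at -0.34, Kif4 at -0.30, Bub1b at -0.30 and Ect2 at -0.29. Smaller differences were those of Tpx2 at -0.28, Cdca3 at -0.28, Cenpa at -0.27, Nek2 at -0.24, Bub1 at -0.23, Plk4 at -0.18 and Incenp at -0.16.

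At 6 h the members higher than at 2 h were Ccnf at 0.50, Ttk at 0.26 and Ccna2 at 0.17. Those lower at 6 h were, from the largest difference, Nusap1 at -0.51, Prc1 at -0.40, Cenpa at -0.35, Cdc25b at -0.34, Hmmr at -0.33, Kif4 at -0.32 and Ect2 at -0.29. Smaller ones were Aurka at -0.29, Cdca3 at -0.28, Bub1b at -0.28, Kif11 at -0.25, Bub1 at -0.25, Nek2 at -0.22 and Cdca8 at -0.18.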

How the results depend on the processing

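Quantile normalization and median centring gave counts of called members within 1.5 times of the main ones (1, 19, 17, 16, 0 and 17 for 2, 4 and 6 h against no RA, 4 h against 2 h, 6 h against 4 h and 6 h against 2 h). Other settings moved some counts. Averaging all probe sets of a gene gave 0 at 2 h, 11 at 6 h, 9 (7 falls, 2 rises) at 4 h against 2 h and 8 (6 falls, 2 rises) at 6 h against 2 h. It called 257 of all genes higher and 173 lower at 2 h, and 2546 and 2395 at 6 h. At 4 h against 2 h it called 2044 higher and 1809 lower, and at 6 h against 2 h 2870 and 2455. Probe sets without a suffix for shared probes gave 12 at 4 h, 9 at 6 h and 11 at 6 h against 2 h. The last were 6 rises and 5 falls among 32 members, where 16.4% of the 16591 genes so measured rose and 13.7% fell. With only the 6 arrays compared in the fit, counts were 0 at 2 h, 9 at 4 h and 9 at 6 h. At 6 h against 4 h the count was 1. Those fits called 1423 of all genes higher and 1658 lower at 4 h, and 1799 and 1819 at 6 h. They called 99 higher and 35 lower at 2 h, and 164 and 87 at 6 h against 4 h. The dim filter gave 2 at 2 h and 1 at 6 h against 4 h. Trended and robust variance gave 2 at 2 h, and array weights 1 at 6 h against 4 h. At 2 h the dim filter called 322 of its genes higher and 337 lower, and trended and robust variance 305 and 304. At 6 h against 4 h the dim filter called 136 higher and 108 lower, and array weights 405 and 287. At an adjusted p under 0.01 counts were 0, 11 and 9 at 2, 4 and 6 h against no RA. They were 10 at 4 h against 2 h and 7 at 6 h against 2 h. Of all genes, 139, 1380 and 1728 were then higher and 56, 1614 and 1750 lower against no RA. At 4 h against 2 h 1289 were higher and 1078 lower, and at 6 h against 2 h 2038 and 1581. At 0.1 the member counts were 2 at 2 h and 1 at 6 h against 4 h. There 443 and 176 of all genes were higher and 460 and 158 lower. Leaving out 1 array gave 0 to 2 calls at 2 h, 12 to 18 at 4 h, 12 to 18 at 6 h, 11 to 17 at 4 h against 2 h, 0 to 1 at 6 h against 4 h and 11 to 19 at 6 h against 2 h. Counts of all genes moved as well, such as 1757 higher and 2056 lower at 4 h without RA 4 h array A.

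The replicate block gave 1, 18 and 16 calls at 2, 4 and 6 h and ended those of Kif11 at 4 h and of Incenp and Tpx2 at 6 h. Same-lettered arrays deviated together with correlations of -0.128 to 0.315 over all genes. RA 4 h and RA 6 h arrays stood at 0.266 for A and 0.315 for C, against 0.057 for B. Arrays of different letters were not compared, so these values do not settle whether the letters pair the arrays. The main fit did not pair them.

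Some log2 differences from no RA changed sign with the probe set, and the cause was not tested. With probe sets averaged, Cenpa stood at 0.11 and 0.081 at 4 and 6 h and Bub1 at 0.00040 at 6 h. Without suffixed probe sets, Bub3 stood at 0.38 and 0.36, Cenpa at 0.59 and 0.62, Hmmr at 0.11 and 0.24, and Cdca3 at 0.0082 at 6 h. Among single probe sets those values recurred for Bub3, Cenpa, Hmmr and Cdca3. Others gave 0.075 and 0.13 for Tpx2 at 4 and 6 h, 0.082 for another of its probe sets at 4 h, and 0.17 and 0.25 for Bub1. Incenp stood at 0.052 and 0.058, with 0.029 for another probe set at 4 h, Aurka at 0.070 at 6 h, Nek2 at -0.012 at 2 h and Kif23 at -0.37 at 6 h. Searched on the gene's own strand alone, CCAAT was found in 18 windows, against 28. The 3 arrays a group, the unknown normalization and the unknown kind of replicate limit all of these values.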
